A study of Mus musculus with 16 samples.

Results

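Apod encodes apolipoprotein D, a small secreted glycoprotein. Despite its name it belongs to the lipocalins, barrel-shaped carriers of small greasy molecules, and it is unrelated in fold to most other apolipoproteins. It binds arachidonic acid, the fatty acid from which prostaglandins and leukotrienes are made, and also progesterone, and part of it travels on high-density lipoprotein. In the nervous system it is known as a protein that accumulates in injured and regenerating peripheral nerve, where fibroblasts inside the nerve make it, and in fibroblasts it is known to rise when growth stops or oxidants accumulate. Basigin (Bsg) has been described as a receptor for it, and the leptin receptor (Lepr) as a binding partner.

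Apod is 1 gene of the 17370 in the table, found by its Ensembl identifier, ENSMUSG00000022548. It was chosen by its CPM in these same 16 libraries, for how its level moves with ligament injury and treatment, so its levels are given as a description, with standard errors and without a test. On GRCm38 the gene lies on chromosome 16 from 31296192 to 31314808, on the minus strand, and is annotated as protein coding by GENCODE M21. In that annotation 0 other genes overlap it.

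The quadriceps, the large muscle at the front of the thigh, was taken from mice, and its RNA was sequenced in 16 libraries, 4 in each of 4 groups. The groups were the quadriceps labelled healthy and that labelled ACLT (transection of the anterior cruciate ligament of the knee, here called injured) in mice given a placebo, and the same in mice given an inhibitor of CSF1-R, the receptor for colony-stimulating factor 1 on which many macrophages depend. Mice drank 0.5% sucrose as the placebo, or the inhibitor at 40 mg/kg, for 7 days after transection. Strain, sex, age and the name of the inhibitor are not given in the sources used here. No group is labelled as coming from mice without transection, so the healthy quadriceps shares the drinking regime of the injured one. The sample names join a healthy and an injured library by a shared stem with the letters L and R, which was read as both limbs of 1 animal. The labels do not state this, and the design text speaks of before and after transection. The titles call the libraries of each group biological replicates, but do not state that these came from separate animals. The standard errors therefore measure the spread between these samples.

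The sequence in front of the gene is shown first, because the levels below are those of its transcripts. The 250 bases before the annotated start, read 5′ to 3′ on the strand of the gene from the RefSeq promoter table of GRCm38.p6 (chr16:31314809-31315058, minus strand), are rich in A and T. The GC content is 36.4%, against a median of 52.4% over all promoters of the table.

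Apod promoter: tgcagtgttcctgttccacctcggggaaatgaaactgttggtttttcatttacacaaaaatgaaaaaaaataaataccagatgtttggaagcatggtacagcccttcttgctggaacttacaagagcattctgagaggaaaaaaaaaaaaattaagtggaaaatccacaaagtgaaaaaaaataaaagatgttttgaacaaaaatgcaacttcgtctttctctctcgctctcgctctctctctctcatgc

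It is printed in lower case throughout because none of the 4 motifs searched on both strands had a match in it. The core promoter motif TATAAA is held by 12.4% of the 32851 promoters of this length. The AP-1 motif TGACTCA is held by 4.46%, the E-box CAGCTG by 13% and the forkhead motif TGTTTAC by 3.17%. The absence of a match says only that these letters do not stand in this window.

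Library totals were 20.12 to 27.13 M (mega) counts, and mitochondrial genes took 10.69 to 18.98% of them. All 12 muscle identity genes, such as Acta1 and Ckm, were detected, and their summed level was 101000 to 193000 CPM over the 16 libraries. CPM are counts per 1 M counts of the library total, scaled by edgeR's TMM factors. The lubricin gene Prg4, active in the lining and surfaces of joints, stood above 100 CPM in 4 libraries: healthy placebo 4, injured placebo 2, injured placebo 3 and healthy inhibitor 1, at 169 to 286 CPM. They are spread over 3 of the 4 groups, and the main values of Apod are given with and without them. Across the 15411 genes tested, edgeR's quasi-likelihood test called 0 genes in any of the 5 comparisons after Benjamini-Hochberg adjustment.

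Apod was highest in the injured quadriceps of placebo mice and lower, at similar levels, in the other 3 groups. In healthy placebo quadriceps it was at 26.2, 27.2, 19.5 and 28.5 CPM in replicates 1 to 4. In injured placebo quadriceps the values were 44.7, 34.1, 46.2 and 39.5 CPM. The lowest injured library lay above the highest healthy one, so the groups did not overlap. With the inhibitor, healthy quadriceps gave 32.5, 27.3, 32.7 and 23.5 CPM. Injured quadriceps with the inhibitor gave 30.8, 23.7, 26.6 and 24.2 CPM, all within the 19.5 to 32.7 CPM spanned by the healthy quadriceps of both treatments. Each value rests on 444 to 1152 counts of the gene, which gives a counting error of 2.95 to 4.75%. The spread between replicates was wider, with a coefficient of variation of 15.9% in healthy placebo, 13.3% in injured placebo, 15.3% in healthy inhibitor and 12.3% in injured inhibitor quadriceps.

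**Figure D1:**
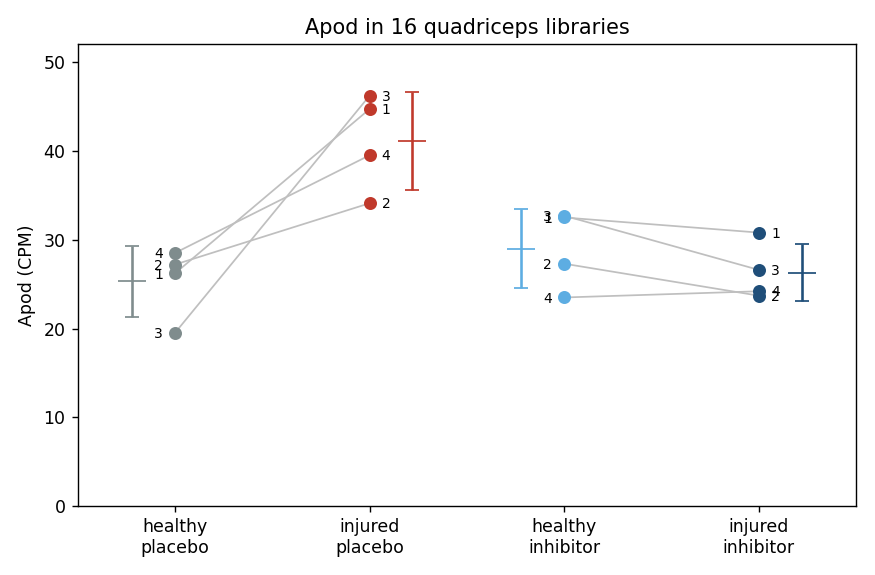
Apod level in CPM (vertical axis, from 0) in each of the 16 libraries by group, with the replicate number beside each point, grey lines joining libraries of 1 stem, and the mean with SD (n = 4) beside each group. The 4 injured placebo libraries lie at 34.1 to 46.2 CPM and the other 12 at 19.5 to 32.7 CPM.

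By mean, the order of the groups was injured placebo at 41.1 ± 5.49 CPM, healthy inhibitor at 29.0 ± 4.44 CPM, injured inhibitor at 26.3 ± 3.23 CPM and healthy placebo at 25.3 ± 4.03 CPM (SD, n = 4). The last 3 neighbours in this order did not differ beyond their spread, and their ranges overlapped. Between the first and the second the gap was narrow at its closest: injured placebo 2 stood at 34.1 CPM and healthy inhibitor 3 at 32.7 CPM. On the log2 scale these were 5.10 and 5.04, and the separation held with DESeq2 size factors (5.09 and 5.03) and with library totals alone (5.27 and 5.02). The counting errors of these libraries were 3.26% and 3.42%, so their gap in CPM was near the size of the counting error. Of all genes tested, 21 (0.136%) had every injured placebo library above all other 12 libraries, Apod among them.

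Injury with placebo, the comparison of the injured with the healthy limb of placebo mice, gave Apod a log2 difference of 0.70 ± 0.14 (SE), or 1.62-fold. Of the genes tested, 0.87% had injured placebo libraries all above healthy placebo libraries, and 0.681% had them all below. By size of the log2 difference the change was not extreme, since 10.7% of the genes differed by more in either direction. The median difference of all genes was 0.01. The pooled SD of Apod within groups was 0.21 on the log2 scale. EdgeR called 0.0% of the genes here, 4.61% were higher and 2.63% lower at an unadjusted p under 0.05, limma-voom called 0 genes and DESeq2 called 2 (0.013%). These 2, named after their values were seen, were Apod and Chrna1, a subunit of the muscle acetylcholine receptor. The DESeq2 call of Apod rests on the same values that led to its choice and adds nothing independent.

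Within stems, Apod was higher in the injured limb of all 4 placebo pairs. The log2 differences of injured over healthy were 0.77, 0.33, 1.24 and 0.47 for stems 1 to 4, or 1.71-, 1.25-, 2.37- and 1.38-fold. The widest difference, in the third stem, combined the lowest healthy library with the highest injured one. Their mean was 0.70 with an SD of 0.41, and their median 0.62. The share of all genes that were higher in all 4 placebo pairs was not computed.

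Injury with inhibitor gave a log2 difference of -0.14 ± 0.14, the same size as its standard error, and the ranges of the limbs overlapped, unlike those of 1.13% of the genes in the higher and 1.12% in the lower direction. The stems gave -0.08, -0.20, -0.30 and 0.04, or 0.948-, 0.869-, 0.811- and 1.03-fold, with a mean of -0.14 and an SD of 0.15. Only the fourth stem had more Apod in the injured limb, and by less than the counting error of its libraries. Across all genes 0.0% were called by edgeR, 0.766% were higher and 0.545% lower at an unadjusted p under 0.05, limma-voom called 0 genes and DESeq2 1 (0.00649%), Ibsp, which had counts in 4 libraries and was named after its value was seen.

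The difference of the injury effects, injury with inhibitor less injury with placebo, was -0.84 ± 0.20 for Apod, and 9.16% of the genes differed by more. EdgeR called 0.0% of genes for this difference, 1.36% were higher and 1.38% lower at an unadjusted p under 0.05, and DESeq2 and limma-voom called 0. Of the 8 stems, the 4 placebo stems lay at 0.33 or above and the 4 inhibitor stems at 0.04 or below, so they did not overlap. Apod was chosen with the values of these stems known, so this is a description. The share of all genes with such a separation of stems was not computed. The injury comparisons share no libraries, while each inhibitor comparison below uses libraries of both.

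The inhibitor in injured quadriceps gave Apod a log2 difference of -0.64 ± 0.14, or 1.56-fold lower, and all injured inhibitor libraries lay below all injured placebo libraries. In this comparison 2.87% of the genes had such a separation in the lower direction and 2.77% in the higher, and 14.8% differed by more than Apod in size. EdgeR called 0.0%, with 5.82% higher and 9.03% lower at an unadjusted p under 0.05, limma-voom called 0 genes and DESeq2 248 (1.61%). The inhibitor in healthy quadriceps gave 0.20 ± 0.14, with overlapping ranges, where 0.96% of the genes were separate in the higher and 1.59% in the lower direction, and 36.1% differed by more. There edgeR called 0.0%, with 1.3% higher and 2.03% lower at an unadjusted p under 0.05, limma-voom called 0 genes and DESeq2 12 (0.0779%). Both inhibitor comparisons are between mice, not within stems.

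Leaving out the 4 libraries high in Prg4 changed Apod little. Injury with placebo was then 0.79 ± 0.17, injury with inhibitor -0.08 ± 0.14, the inhibitor in injured quadriceps -0.68 ± 0.16 and in healthy quadriceps 0.20 ± 0.15, and injury with inhibitor less injury with placebo -0.87 ± 0.22. The injured placebo group then consists of replicates 1 and 4. The same exclusion moved some other differences further: the median of 12 denervation genes went from 1.40 to 0.27 for injury with placebo and from -1.40 to -0.05 for the inhibitor in injured quadriceps, and Chrna1 from 1.35 to 0.53 and from -1.08 to -0.38. In injured placebo 1 and 4 Apod stood at 44.7 and 39.5 CPM, above every library of the other groups, while Prg4 stood at 12.8 and 6.55 CPM.

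Lipid-handling genes around Apod were read from lists written with earlier results of these data known, and no set test was made. Of the 227 list genes tested, edgeR and limma-voom called none in any comparison, and DESeq2 called only Abcg1 among the 4 lists of lipid genes. At an unadjusted p under 0.05 by edgeR, 2 of 9 apolipoproteins, 1 of 13 receptors and transfer proteins, 1 of 14 arachidonic acid genes and 0 of 9 lipocalins and lipid binders were higher with injury under placebo, against 4.61% of all genes. With the inhibitor in injured quadriceps 2, 5, 5 and 0 of them were lower, against 9.03% of all genes, and 1 lipid binder was higher. The median log2 differences are given beside those of all genes, 0.01 for injury with placebo and -0.02 for the inhibitor in injured quadriceps.

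Among other lipocalins and small intracellular lipid binders, 9 of 16 were tested, 7 higher and 2 lower with injury under placebo, with a median of 0.16. With the inhibitor in injured quadriceps 4 were higher and 5 lower, with a median of -0.09. Without the 4 libraries high in Prg4 the medians were 0.38 and 0.02. Rbp4, the plasma carrier of retinol, gave 0.14 ± 0.99 and 0.21 ± 0.99 in these comparisons, and Lcn2, a lipocalin that binds bacterial siderophores, -0.30 ± 0.90 and -0.79 ± 0.94. C8g, a lipocalin of complement component 8, gave 0.17 ± 0.32 and -0.29 ± 0.33. These relatives of Apod had standard errors wider than that of Apod, and their differences were smaller than their errors. With the libraries high in Prg4 left out, the signs of Rbp4 (0.92 and -0.60) and Lcn2 (0.79 and 0.02) differed from these in 1 or both comparisons. Ptgds and Apom, lipocalins on the list, were not analysed here.

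The apolipoprotein list shares a name with Apod more than a fold. Of its 18 genes 9 were tested, 8 higher and 1 lower with injury under placebo (median 0.65), and 3 higher and 6 lower with the inhibitor in injured quadriceps (median -0.19). These medians were 0.45 and 0.00 without the libraries high in Prg4. Apoe, a ligand of lipoprotein receptors made by macrophages and liver, was at 61.3, 54.6, 42.9 and 313.0 CPM in healthy placebo and at 95.0, 420.0, 407.0 and 111.0 CPM in injured placebo quadriceps. These groups overlapped, and the 3 highest values were all in libraries high in Prg4. Apoe gave 1.13 ± 0.72 for injury with placebo and -1.67 ± 0.73 for the inhibitor in injured quadriceps (edgeR adjusted p = 0.664 and 0.319), and without those libraries 0.95 and -0.34. Clu, clusterin, which is also called apolipoprotein J, gave 0.22 ± 0.19 and -0.17 ± 0.19 (edgeR adjusted p = 0.735 and 0.73), and -0.02 and 0.00 without those libraries.

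Among receptors and transfer proteins 8 of 13 were higher with injury under placebo (median 0.16), and 7 of 13 were lower with the inhibitor in injured quadriceps (median -0.39), which became 0.13 and -0.13 without the libraries high in Prg4. Bsg, the receptor described for Apod, was at 507.0 to 720.0 CPM in healthy and 389.0 to 633.0 CPM in injured placebo quadriceps. Its log2 difference was -0.31 ± 0.16 for injury with placebo and 0.10 ± 0.16 for the inhibitor in injured quadriceps (edgeR adjusted p = 0.641 and 0.803), both of opposite sign to those of Apod. Lepr, at 1.93 to 6.01 CPM over all libraries, gave 0.16 ± 0.34 and 0.16 ± 0.34. Lrp1, a large scavenger receptor and the member most like Apod across libraries (r = 0.57), gave 0.58 ± 0.36 and -0.71 ± 0.36, the second of which was -0.31 without the libraries high in Prg4. Abcg1, a cholesterol exporter named after its values were seen, gave 1.91 ± 0.48 and -1.72 ± 0.47 (edgeR adjusted p = 0.641 and 0.205), and was 1 of the 248 genes DESeq2 called for the inhibitor in injured quadriceps. Its level spanned 1.36 to 3.57 CPM in healthy placebo, 2.64 to 13.2 CPM in injured placebo and 1.96 to 2.49 CPM in injured inhibitor quadriceps. The placebo ranges overlapped, and its differences without the libraries high in Prg4 are not reported here.

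Genes that release and convert arachidonic acid, the ligand of Apod, lay mostly in the direction of Apod. With injury under placebo 13 of 14 were higher (median 0.42), and with the inhibitor in injured quadriceps 11 of 14 were lower (median -0.75), which became -0.21 without the 4 libraries high in Prg4. Alox5ap, the protein that presents arachidonic acid to 5-lipoxygenase, was the member most like Apod (r = 0.59) and gave 1.84 ± 0.72 and -1.95 ± 0.73 (edgeR adjusted p = 0.641 and 0.254). Its level spanned 1.22 to 13.7 CPM within injured placebo quadriceps. Pla2g4a, the phospholipase that frees arachidonic acid from membranes, gave 0.77 ± 0.72 and -0.90 ± 0.72, and Ptgs1, cyclooxygenase 1, 0.13 ± 0.30 and -0.60 ± 0.31. Without the libraries high in Prg4 Alox5ap gave 1.11 and -0.10, Pla2g4a 0.76 and 0.31, and Ptgs1 -0.26 and -0.04.

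**Figure D2:**
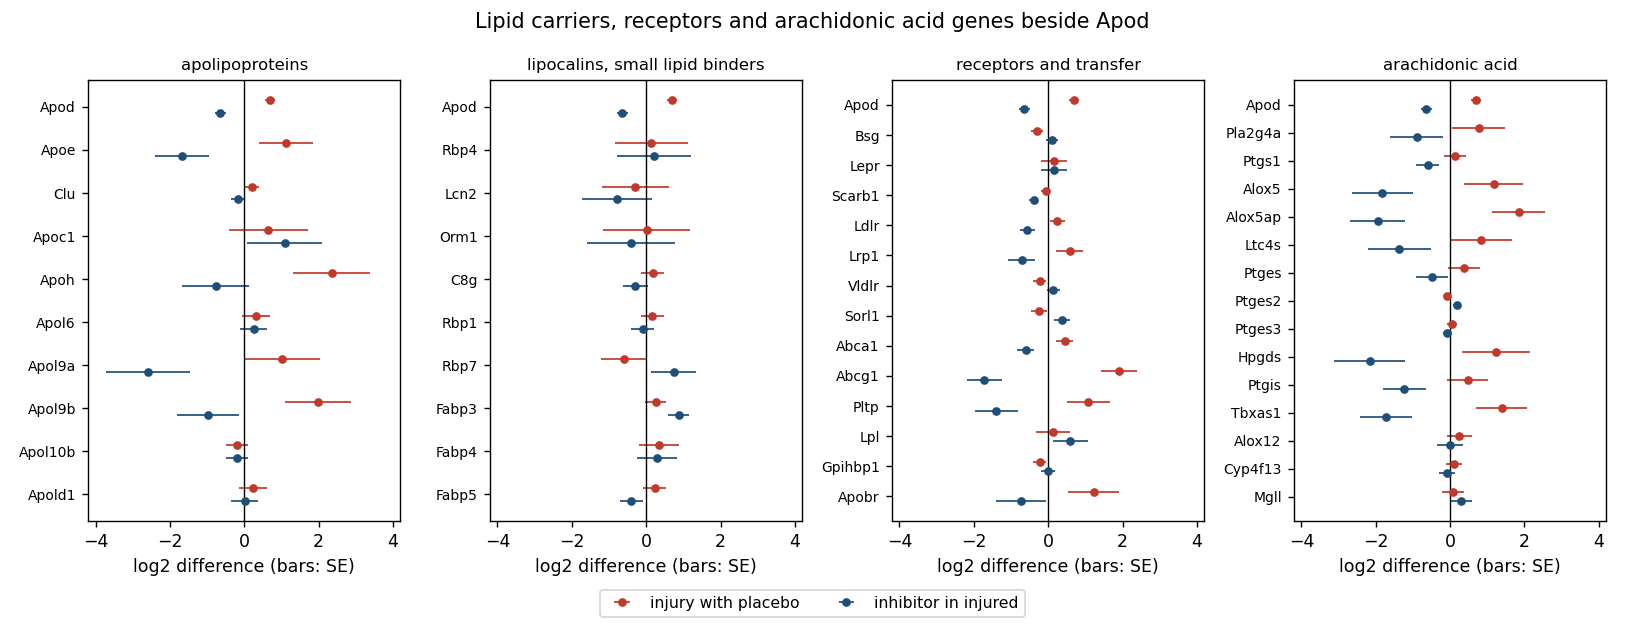
Log2 difference (horizontal axis) with SE bars for Apod and the tested members of 4 lists, for injury with placebo (red) and the inhibitor in injured quadriceps (blue). The bars of Apod, at 0.70 ± 0.14 and -0.64 ± 0.14, are narrower than those of Apoe, Abcg1 or Alox5ap, whose differences are larger.

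The settings in which Apod is known to rise were read in the same way. Of 23 genes of oxidative defence 15 were higher with injury under placebo, with a median of 0.06. Mt1, a metallothionein that binds metals and scavenges oxidants, was the closest to Apod of these (r = 0.76, rho = 0.77, and r = 0.62 without the 2 libraries farthest from the median of Apod). It was at 5.14, 8.54, 4.87 and 11.2 CPM in healthy and 14.2, 19.2, 17 and 7.64 CPM in injured placebo quadriceps, so its groups overlapped where those of Apod did not. Of 16 growth arrest genes 10 were higher, with a median of 0.15, and Cdkn1a, an inhibitor of the cell cycle, gave 0.93 ± 0.42 (edgeR adjusted p = 0.641), and 0.48 without the libraries high in Prg4. Of 11 steroid receptors and glucocorticoid targets 3 were higher and 8 lower, with a median of -0.12. With the inhibitor in injured quadriceps the medians of these 3 lists were 0.08, -0.13 and -0.05. At an unadjusted p under 0.05 by edgeR, 4, 2 and 0 members were higher with injury under placebo and 0, 0 and 1 lower. The shares of all genes were 4.61% and 2.63%. With the inhibitor in injured quadriceps 2, 0 and 1 were higher and 5, 5 and 2 lower, against 5.82% and 9.03% of all genes. There the 248 DESeq2 calls held Mt2 (-2.29), Trp53inp1 (-0.55) and Per1 (-1.36), named after their values were seen. Trp53inp1 (-0.58) and Per1 (-1.17) were also among the 12 DESeq2 calls for the inhibitor in healthy quadriceps, where Apod gave 0.20. Leaving out the libraries high in Prg4, the 3 medians were 0.09, 0.11 and 0.04 for injury with placebo and -0.04, 0.01 and -0.15 for the inhibitor in injured quadriceps.

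In whole muscle a change in the number of cells of a type and a change in RNA per cell cannot be told apart. Markers of the cells that could hold Apod were therefore set beside it. Fibroblast markers, 18 of 18 detected and none at 0 in any library, had summed levels of 776 to 5920 CPM in healthy placebo, 1580 to 4770 CPM in injured placebo, 1330 to 2020 CPM in healthy inhibitor and 1260 to 1870 CPM in injured inhibitor quadriceps. With injury under placebo 16 of 18 were higher (median 0.46), and with the inhibitor in injured quadriceps 16 of 18 were lower (median -0.40). Without the 4 libraries high in Prg4 these medians were 0.33 and 0.18, a change of sign in the second, while Apod gave 0.79 and -0.68.

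Dcn, the matrix proteoglycan decorin, was the fibroblast marker most like Apod (r = 0.72, rho = 0.82, and r = 0.61 without the 2 farthest libraries). It was at 130.0, 303.0, 162.0 and 359.0 CPM in healthy and 351.0, 323.0, 401.0 and 272.0 CPM in injured placebo quadriceps. Pdgfra, the receptor that marks muscle fibroblasts and fibro-adipogenic progenitors, was at 12.6, 27.1, 15.1 and 44.0 CPM in healthy and 33.4, 41.2, 48.1 and 32.0 CPM in injured placebo quadriceps. Healthy placebo 4 had the second highest Pdgfra of all libraries and 28.5 CPM of Apod, below every injured placebo library. Pdgfra gave 0.65 ± 0.30 for injury with placebo and -0.47 ± 0.30 for the inhibitor in injured quadriceps (edgeR adjusted p = 0.641 and 0.481). Both markers kept the direction of Apod without the libraries high in Prg4, Pdgfra at 0.83 and -0.23 and Dcn at 0.65 and -0.33. The median of the 18 markers, then at 0.18 for the inhibitor in injured quadriceps, did not. The mean of the 18 genes had r = 0.43 with Apod over the 16 libraries (rho = 0.51) and 0.29 over the deviations from group means. The part of fibroblast number in the levels of Apod was not tested.

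Markers of nerve were read in the same way. Of 14 Schwann cell markers 8 were higher and 6 lower with injury under placebo (median 0.01), and 12 were lower with the inhibitor in injured quadriceps (median -0.21). None was at 0 in any library, and their summed levels were 76.8 to 133.0 CPM in healthy placebo, 77.4 to 142.0 CPM in injured placebo, 68.8 to 173.0 CPM in healthy inhibitor and 76.4 to 105.0 CPM in injured inhibitor quadriceps. Of 11 markers of the perineurium and endoneurial fibroblasts 9 were higher (median 0.21), and 9 were lower with the inhibitor in injured quadriceps (median -0.27). Their summed levels were 27.6 to 53.4, 41.8 to 54.6, 27.1 to 48.8 and 33.0 to 47.3 CPM in the groups in the same order, and Msln was at 0 in at least 1 library. The mean of these 11 genes had r = 0.61 with Apod over the 16 libraries and 0.43 over the deviations from group means. Without the libraries high in Prg4 the medians were 0.25 and -0.51 for Schwann cell markers and 0.46 and -0.23 for those of the perineurium and endoneurial fibroblasts, all in the direction of Apod. The part of nerve content in the levels of Apod was not tested.

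Markers of macrophages, the cells whose receptor the inhibitor targets, had wider differences than Apod and a wider spread between libraries. All 14 macrophage markers were higher with injury under placebo (median 1.69) and lower with the inhibitor in injured quadriceps (median -2.63). At an unadjusted p under 0.05 by edgeR, 3 were higher with injury under placebo, against 4.61% of all genes. With the inhibitor in injured quadriceps 13 were lower, against 9.03% of all genes. The 248 DESeq2 calls there held Fcer1g (-3.3) and Ctss (-3.85), named after their values were seen. Summed levels were 27.1 to 466.0 CPM in healthy placebo, 99.3 to 888.0 CPM in injured placebo, 49.0 to 146.0 CPM in healthy inhibitor and 55.9 to 129.0 CPM in injured inhibitor quadriceps, and Ms4a7 was at 0 in at least 1 library. The mean of these 14 genes had r = 0.63 with Apod over the 16 libraries (rho = 0.75) and 0.32 over the deviations from group means. Of single markers Csf1r had r = 0.66 (rho = 0.74), Adgre1, a receptor of mature macrophages, 0.65 (rho = 0.82), and Cd163, the scavenger receptor for haemoglobin, 0.69 (rho = 0.74), the closest of the 14. Csf1r was at 16.4, 63.8, 60.0 and 10.4 CPM in injured placebo quadriceps, where Apod was at 44.7, 34.1, 46.2 and 39.5 CPM, so the library with the most Csf1r had the least Apod of its group. Healthy placebo 4, at 29.9 CPM of Csf1r, had more of it than injured placebo 1 and 4 and less Apod. Within its own group that library had the most of both, with Apod at 28.5 CPM. Healthy inhibitor 4 (Csf1r 3.39 and Apod 23.5 CPM) and injured inhibitor 2 (6.03 and 23.7 CPM) were the lowest of their groups for both. Without the libraries high in Prg4 the macrophage medians were 1.24 and -0.63, and the differences of Apod 0.79 and -0.68. Csf1r was then at 1.16 and -0.61, and Cd163 at 1.75 and -1.15, against 1.26 ± 0.50 and -1.13 ± 0.49 with all libraries. The part of macrophages in the levels of Apod was not tested.

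**Figure D3:**
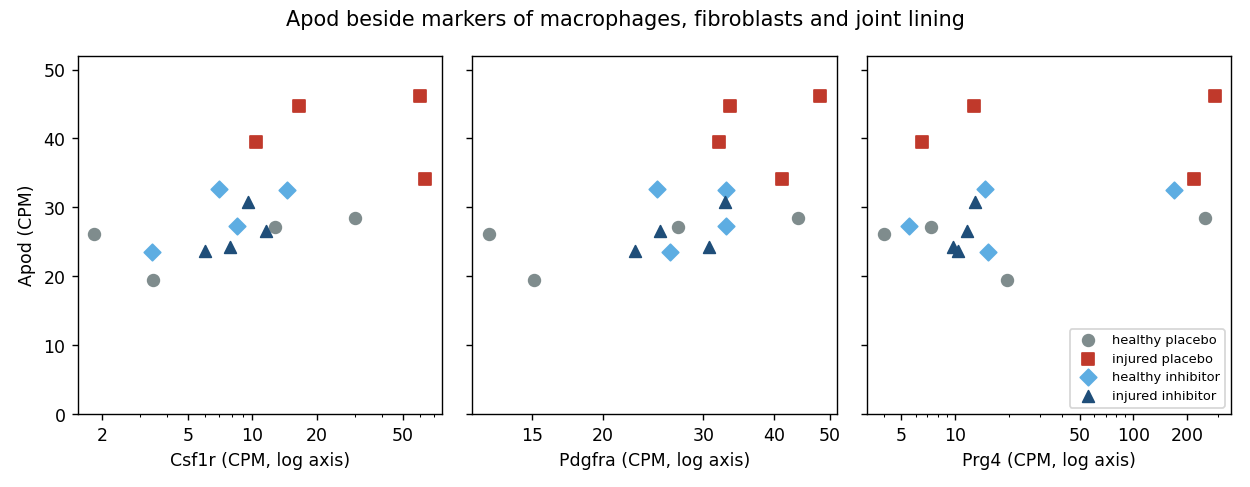
Apod in CPM (vertical axis, from 0) against Csf1r (macrophages), Pdgfra (fibroblasts) and Prg4 (joint lining) in CPM on log axes, 1 point per library, colour and shape by group. Injured placebo libraries lie highest for Apod, at 10.4 to 63.8 CPM of Csf1r and 6.55 to 286 CPM of Prg4. The other libraries span 1.83 to 29.9 CPM of Csf1r.

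Tendon markers were all 10 higher with injury under placebo (median 0.47) and all lower with the inhibitor in injured quadriceps (median -0.36), which became -0.06 and 0.33 without the libraries high in Prg4. For the other types the medians for these 2 comparisons were 0.52 and 0.37 for 11 adipocyte markers, -0.18 and 0.21 for 13 endothelial markers, -0.22 and 0.29 for 11 mural cell markers, 0.01 and -1.70 for 6 joint markers and -0.21 and 0.05 for the 12 muscle identity genes. Without the libraries high in Prg4 these were 0.92 and -0.26, -0.04 and -0.01, -0.18 and 0.14, -0.05 and 0.26, and -0.26 and 0.12 in the same order. Denervation genes, which muscle expresses when its nerve supply is lost or fibres regenerate, had medians of 1.40 and -1.40 over 12 genes, and of 0.27 and -0.05 without those libraries.

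The genes that followed Apod most closely were ranked by Pearson correlation of log2 CPM over the 16 libraries. Ranked were 10773 genes with a mean log2 CPM of at least 1, with predicted genes, mitochondrial genes and clone names left out. The libraries share groups and, as far as the stems mark animals, mice, so the correlations are descriptions. The median over the genes ranked was -0.03. Stxbp6, which encodes amisyn, a regulator of vesicle fusion, led with r = 0.89 (rho = 0.84, 0.84 over deviations from group means, and 0.83 without the 2 libraries farthest from the median of Apod, injured placebo 1 and 3). Of the genes that came next, Degs1, Magi3, Irgm1 and Mgl2 were each at 0.82, Ywhaq and Fam107b at 0.78 and Hmgn2 and Plce1 at 0.76. The eleventh gene was also at 0.76, so the end of the list is not sharp.

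Stxbp6 was at 5.10, 6.73, 4.70 and 6.57 CPM in healthy placebo, 8.62, 6.03, 8.58 and 8.35 CPM in injured placebo, 7.82, 6.46, 6.43 and 4.55 CPM in healthy inhibitor and 6.26, 5.56, 6.15 and 5.43 CPM in injured inhibitor quadriceps. Injured placebo 2, the library with the least Apod of its group, was also the lowest of its group for Stxbp6, and healthy inhibitor 4 was the lowest of its group for both. The log2 differences of Stxbp6 were 0.45 ± 0.18 for injury with placebo and -0.43 ± 0.18 for the inhibitor in injured quadriceps, smaller than those of Apod.

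Magi3, a scaffold protein of cell junctions, was the only 1 of the 10 followers with every injured placebo library above the other 12, at 4.32 to 4.69 CPM against 2.22 to 4.07 CPM. Mgl2, a lectin of macrophages and dendritic cells, had the widest differences of the 10, 1.21 ± 0.45 for injury with placebo and -1.36 ± 0.45 for the inhibitor in injured quadriceps. Its levels were low, from 0.847 CPM in healthy inhibitor 4 to 9.38 CPM in injured placebo 3, the library with the most Apod. Degs1, a desaturase of ceramide synthesis, gave 0.29 ± 0.12 and -0.30 ± 0.12. Irgm1, an interferon-inducible GTPase, gave 0.30 ± 0.14 and -0.40 ± 0.14.

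**Figure D4:**
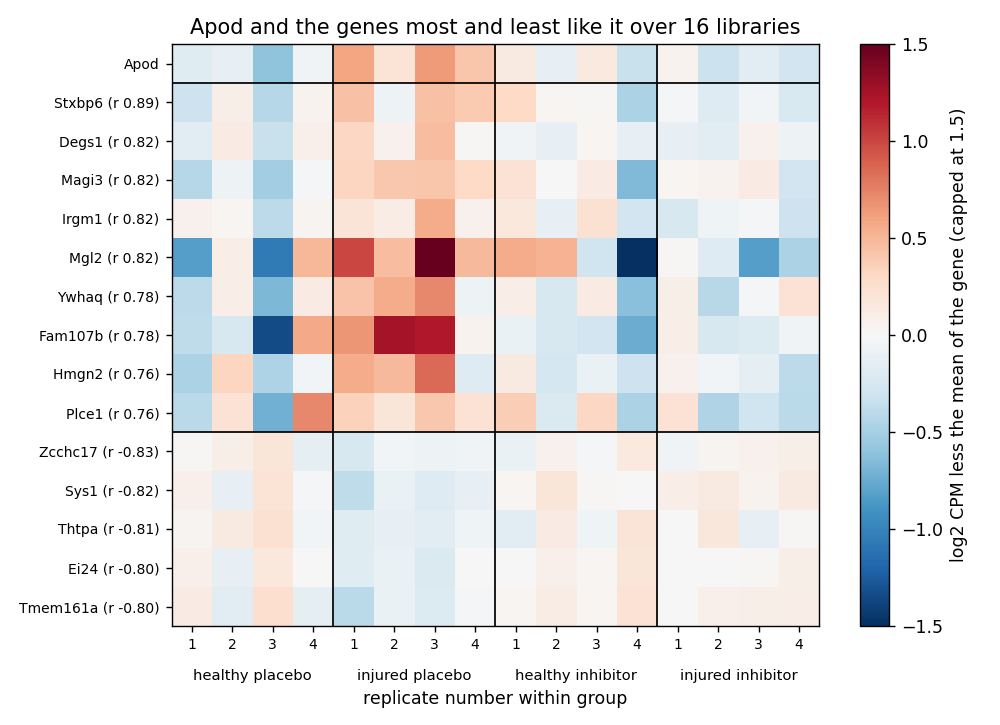
Log2 CPM less the mean of each gene (colour, capped at 1.5) for Apod, 9 of the 10 genes with the highest and the 5 with the lowest correlation with it, in 16 libraries (columns by group and replicate). The followers are high in injured placebo 1 and 3 and low in healthy placebo 3, where Apod is at 44.7, 46.2 and 19.5 CPM.

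All 10 followers had positive differences for injury with placebo, from 0.23 for Plce1 to 1.21 for Mgl2, and negative ones for the inhibitor in injured quadriceps, from -0.30 for Degs1 to -1.36 for Mgl2. A high correlation with Apod makes such signs likely, so they are not a separate result. The membership depended on the measure of likeness. Of the 10, 5 were also among the first 10 by Spearman correlation, 2 by correlation of deviations from group means and 3 without the libraries high in Prg4, and 5 to 9 stayed when 1 library was left out. At the other end, Zcchc17 (r = -0.83), Sys1 (-0.82), Thtpa (-0.81), Ei24 (-0.80) and Tmem161a (-0.80) ran opposite to Apod. Their differences were small: Zcchc17 gave -0.14 ± 0.09 for injury with placebo, and Sys1, a protein of the Golgi, -0.24 ± 0.09.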

How the data were processed

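Quadriceps RNA of 16 libraries was analysed from the authors' table of expected counts per Ensembl gene, which per the deposited values were not normalized: 33.8% were not whole numbers and each of the 17370 genes reached 10 in at least 1 library. The tools named in the submitters' processing notes are Partek, STAR and DESeq2, and the build is GRCm38 (mm10); their roles, versions and the annotation are not given in the sources used here. Symbols came from GENCODE M21 for 17338 genes. Gene, lists, comparisons and naming rule were chosen with earlier results of these data known.

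Expected counts were rounded. EdgeR 4.0.16 in R 4.3.3 dropped 1959 genes (filterByExpr, minimum count 10), scaled by TMM (factors 0.917 to 1.17) and fitted 4 group means to 16 libraries with the robust quasi-likelihood method (12 residual degrees of freedom, common biological coefficient of variation 0.284), two-sided with Benjamini-Hochberg adjustment at 0.05 over 15411 genes; the fit was tested on simulated data. Log2 CPM used a prior count of 2. A floor of 3 counts was 0.109 to 0.159 CPM and, like the counting errors, covers counting error only. Any 2 libraries differed in at least 96.0% of genes.

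Named were Apod, the 10 genes most and 5 least correlated with it, fixed genes (Bsg, Lepr, Apoe, Clu, Pdgfra, Prg4, Csf1r) and, per list, the first 2 tested members and the one most like Apod; the text prints a subset, picked after the values were seen, and some named genes are not reported here. Alternatives were DESeq2 1.42.0 and its size factors, limma-voom (limma 3.58.1), no low-count filter, only the groups compared, a replicate block by stem or number, each library left out, no libraries with Prg4 above 100 CPM and, chosen after seeing the data, library totals alone. Figures used matplotlib 3.10.9 in Python 3.11.15.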

Additional observations from a re-analysis of the deposited data

Results flagged for a closer look

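No group of Apod values held a library far from the others. Over 17 genes followed here, 68 groups of 4 libraries were checked with Dixon's test at its critical value for 4 values, and 9 held a library that stood far from its group, where chance flags about 1 in 20 groups. Among the followers of Apod these were Stxbp6 in injured placebo 2, the lowest of its group at 6.03 CPM, and Irgm1 in healthy placebo 3, the lowest at 13.2 CPM. In both libraries Apod was also the lowest of its group, at 34.1 and 19.5 CPM. Apoe stood apart at 313.0 CPM in healthy placebo 4 and 28.9 CPM in healthy inhibitor 4. Clu stood apart at 95.4 CPM in healthy placebo 1, 52.9 CPM in injured placebo 4 and 57.9 CPM in healthy inhibitor 1. Prg4 stood apart at 251 CPM in healthy placebo 4 and 169 CPM in healthy inhibitor 1.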

How the results depend on the processing

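Apod kept its direction, and moved by less than its spread between replicates, in all 119 alternative fits over the 5 comparisons. With each library left out, injury with placebo ranged from 0.59 to 0.78, injury with inhibitor from -0.23 to -0.08, the inhibitor in injured quadriceps from -0.73 to -0.58, the inhibitor in healthy quadriceps from 0.09 to 0.28 and the difference from -0.93 to -0.73. The other alternatives gave 0.69 to 0.83, -0.14 to -0.08, -0.78 to -0.63, 0.18 to 0.20 and -0.96 to -0.83 in the same order.

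The replicate block by stem gave 0.70 for injury with placebo, -0.14 for injury with inhibitor and -0.84 for the difference, with 0 genes called by edgeR. The correlation of the deviations of libraries of 1 stem was 0.47, -0.18, -0.11 and -0.53 for placebo and 0.23, -0.04, -0.01 and -0.10 for inhibitor stems. It was above 0 only in stem 1 of each treatment, so libraries of 1 stem mostly did not deviate together. The replicate block by number gave Apod -0.65 for the inhibitor in injured and 0.18 in healthy quadriceps, and called 1 gene in the former, Nuak1.

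Counts of called genes, 0 in the edgeR fit, moved in 9 of 119 alternatives. DESeq2 called 2, 1, 248 and 12 genes for injury with placebo, injury with inhibitor, the inhibitor in injured and in healthy quadriceps, and 0 for the difference; limma-voom called 0. With 1 library left out the counts were 0 to 3 for injury with placebo (3 without injured placebo 4: Chrna1, Cpne2 and Fam57b), 0 for injury with inhibitor, 0 to 38 for the inhibitor in injured quadriceps (38 without injured placebo 4 and 1, Cry1, without healthy placebo 1), 0 to 1 in healthy quadriceps (Coq10b, without healthy placebo 1) and 0 for the difference. These genes were named after their values were seen, and the cause was not tested.

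Of 300 alternative correlations with Apod 297 moved by less than 0.2. Over deviations from group means Fam107b fell to 0.56, Hmgn2 to 0.54 and Sys1 was at -0.59. The 300 leave out the correlation without the 2 libraries farthest from the median of Apod. There Hmgn2 fell from 0.76 to 0.53 and Degs1 from 0.82 to 0.63, and Ei24 was at -0.60 against -0.80. Of the followers and the genes opposite to Apod, only Plce1 was not weaker there, at 0.77 against 0.76.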

Other observations

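Of the 21 genes whose injured placebo libraries all lay above the other 12, Apod had the second highest mean level. The others were picked out after their values were seen and are a description. Apobec3, a cytidine deaminase that restricts retroviruses, was at 7.43 to 11.3 CPM in injured placebo quadriceps and 2.31 to 7.06 CPM in the other libraries, with a ratio of the means of 2.3. Mcm4, a subunit of the helicase of DNA replication, was at 5.33 to 8.83 CPM against 3.22 to 5.03 CPM. St8sia4, which attaches polysialic acid to the neural cell adhesion molecule, was at 5.75 to 9.66 CPM against 3.41 to 5.45 CPM. Ticam1, an adaptor of Toll-like receptors, was at 4.07 to 5.01 CPM against 1.53 to 3.48 CPM. For Apod itself the ratio of the means was 1.53. The correlations of these genes with Apod over the 16 libraries were 0.75 for Apobec3, 0.61 for Mcm4, 0.71 for St8sia4 and 0.76 for Ticam1, and all share the separation by which they were picked.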
